A study of Mus musculus with 2 samples.

Results

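A set of 10 genes, of glucose uptake, glycolytic control and lactate handling with the gene of the oxygen-regulated factor Hif1a, was followed in mouse MDSC cultures. They were taken by name from the 32285 genes of the count tables, by a rule without measured values but with earlier results of these data known. They are Slc2a1, Slc2a3, Hk2, Hk3, Pfkfb3, Pfkfb4, Ldha, Slc16a3, Pdk1 and Hif1a. The study asked how dabrafenib (DAB), an inhibitor of the RAF kinases, alters the differentiation and function of myeloid-derived suppressor cells (MDSC). Female C57BL/6 mice, 10 weeks old, gave the bone marrow, which was grown for 4 days in 50 ng/mL of GM-CSF and 50 ng/mL of IL-6, cytokines that drive myeloid growth, so both groups share this cytokine treatment. One group received DAB at 1.5 µmol/L and the other its solvent DMSO. Each group was 1 library of single cells, the sources used here do not give the number of mice behind a library, and the cultures are an in vitro model in which cells of several lineages grow together.

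Glucose enters cells through facilitative carriers of the SLC2A family and is trapped by hexokinases as glucose 6-phosphate. PFKFB enzymes set the level of fructose 2,6-bisphosphate, which activates the committed step of glycolysis, and the pyruvate formed at its end is either reduced by lactate dehydrogenase and exported as lactate or burned in mitochondria, a choice that pyruvate dehydrogenase kinases push away from the mitochondria. HIF-1α, the protein of Hif1a, accumulates at low oxygen or on inflammatory stimulation and activates many of these genes, and neutrophils and activated monocytes are known for their reliance on glycolysis.

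As all but 1 of these genes have a promoter in the RefSeq promoter table, the short DNA core bound by HIF factors (ACGTG or GCGTG, searched on both strands, so that CACGT and CACGC also count, and overlapping the E-box CACGTG) was read in each. The 9 genes with an entry have 12 listed starts, and Slc2a3 has none. The windows of 25 bases around the match nearest to the start among those that lie wholly upstream of it are shown, since they place the genes beside the factor whose own gene is in the group. They run 5′ to 3′ on the gene's strand, with matches in capitals.
Slc2a1: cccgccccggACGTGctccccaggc
Hk2: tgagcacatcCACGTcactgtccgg
Hk3: tacattttgaCACGTtgcctagttc
Pfkfb3: ccttctctcCACGTGaaagggggct
Pfkfb4: gacggatgggGCGTGcttagtccaa
Ldha: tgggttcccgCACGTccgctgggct
Slc16a3: tgcgcgggggACGTGccgcgcgacg
Pdk1: gcctacatggGCGTGtctttaacca
Hif1a: gctgagagcaACGTGggctggggtg

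In build GRCm38.p6 these windows lie at chr4:119108699-119108723 (plus strand) for Slc2a1, chr6:82774492-82774516 (minus strand) for Hk2 and chr13:55021527-55021551 (minus strand) for Hk3. The Pfkfb3 window is at chr2:11502128-11502152 (minus strand), the Pfkfb4 window at chr9:108991775-108991799 (plus strand) and the Ldha window at chr7:46845760-46845784 (plus strand). Those of Slc16a3, Pdk1 and Hif1a are at chr11:120949043-120949067, chr2:71873136-71873160 and chr12:73907787-73907811, all on the plus strand. For Pfkfb3, Ldha and Pdk1, each with a pair of listed starts, the window of the start with more matches is shown. In the full 300 bases (250 before the start and 50 after), Ldha had 7 matches at that start, Pfkfb3 4 and Hif1a 3, while Hk2, Slc16a3, Slc2a1 and Pdk1 had 2 each and Hk3 and Pfkfb4 had 1. A CACGTG, as found in Ldha, Pfkfb3 and Hif1a, holds both CACGT and ACGTG and counts as 2 matches, here and in all promoters. The second Pdk1 match spans the start and is not shown. The other start had 2 matches in Ldha, 1 in Pfkfb3 and 0 in Pdk1. Of all 32851 promoters of the same length in the table, 43.8% held at least 1 match and 20.6% held 2 or more. These shares count every listed start and not the start with more matches. The promoters shown held from 49% (Hk3) to 73.3% (Slc16a3) of G and C, and the shares were not matched for this. The core of the ATF4 element (TGATGCAA) was in none of the 12 promoters and in 0.895% of all promoters. A match is a run of letters, not a bound site.

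The DMSO library held 9855 barcodes with 106792967 unique molecular identifiers (UMIs, each 1 counted RNA molecule), and the DAB library held 11631 barcodes with 165506902 UMIs. After removal of cells rich in mitochondrial RNA and of likely doublets, 9032 DMSO cells (median 7474 UMIs) and 10476 DAB cells (median 9376.5 UMIs) were kept, and 152 barcode sequences occurred in both libraries. Cells were grouped in 26 clusters without the use of the 10 genes or of the pathway lists, and 10 classes, named from marker genes as resembling a cell type, reached 100 cells in both libraries. Clusters that no marker list named held 44.0% of DMSO cells and 41.2% of DAB cells. Markers of granulocytes, monocytes and their progenitors were present in both libraries. Of 6 markers of plasmacytoid dendritic cells, 5 were detected in both libraries and Siglech was at 0 UMIs in both. The chemokine-high granulocyte-like class grew from 4.24% to 13.7% of cells and the intermediate granulocyte-like class, rich in granule genes, shrank from 8.15% to 2.72%. The larger cluster of the former was led by Gpnmb, Ccl3, Atp6v0d2, Ccl2 and Mpeg1, the other by Cxcl3, Cxcl2 and Mmp13. Its 5 chemokine markers are not its own, with 13518.3 and 16422.5 CPM in macrophage-like cells. In this class macrophage markers summed to 66.9 and 56.7 CPM and intermediate granulocyte markers to 8460 and 5807 CPM.

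Expression was measured as CPM, the UMIs of a gene summed over cells and scaled to 1000000 UMIs of all genes. CPM are not set per gene length, so levels are compared between classes and libraries and not between genes. With 1 library per group there is no spread between replicates and no test, and all intervals are exact 95% intervals that cover counting error only. A gene was read as higher or lower in DAB when its log2 ratio of CPM, DAB over DMSO, was at least 0.5 in size with an interval that left out 0. In sums over cells of a library, fewer cells that use a gene and less of its RNA per cell cannot be told apart.

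Over all cells, 1 of the 10 genes was read as higher in DAB (Hk3) and 1 as lower (Pfkfb4), against 13.7% and 16.5% of 16364 genes with at least 20 UMIs. The median log2 ratio of the 10 genes was −0.18 and that of all genes −0.02. Both counts were thus near the shares of all genes, and the genes are described 1 by 1 from here. In the 4849 DMSO and 6518 DAB cells without a UMI of Camp, Ltf, Ngp or Ly6g, which are granule and neutrophil surface genes, Hk3 (0.80) and Slc2a3 (0.86) were higher, Pdk1 was lower (−0.52) and Pfkfb4 was at −0.40. The shares of all genes are not given for these cells, so these readings stand without a background.

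**Figure D1:**
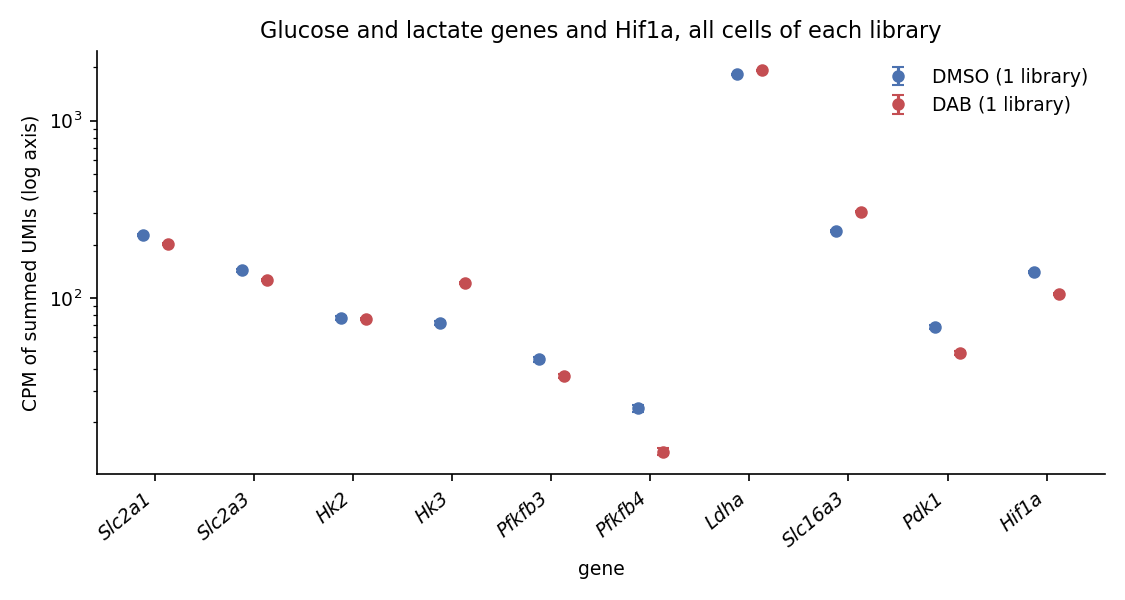
Level of each gene in the DMSO and the DAB library, as CPM of UMIs summed over all cells on a log axis, with exact Poisson 95% intervals, most of them smaller than the points. Hk3 stands higher in DAB (72.6 and 121 CPM) and Pfkfb4 lower (23.8 and 13.6 CPM), and the points of Hk2 and Ldha nearly meet.

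Of the carriers that bring glucose in, Slc2a1 encodes GLUT1, the carrier of basal uptake in most cells (ENSMUSG00000028645, chr4:119108711-119137983, plus strand, GRCm38). It was at 227 CPM in DMSO (20876 UMIs) and 202 CPM in DAB (28228 UMIs), a log2 ratio of −0.17 (interval −0.19 to −0.14). The level was thus slightly lower in DAB and below the size from which a direction was read. Across the classes it ran from 74.9 CPM in activated dendritic cell-like cells to 339 CPM in mature polymorphonuclear (PMN) cell-like cells in DMSO, and from 51.9 to 339 CPM in DAB with the same classes at both ends. In mature PMN-like cells the levels of the libraries did not differ beyond counting error (interval of the log2 ratio −0.10 to 0.11). It was lower in DAB in macrophage-like cells (135 and 83.1 CPM, −0.70), in cycling cells (233 and 151 CPM, −0.62) and in activated dendritic cell-like cells (74.9 and 51.9 CPM, −0.53). In DMSO, 5 of the 9 pairs of neighbours in the order of classes overlapped in their intervals, and in DAB 2 did, so that the order in DAB, from mature PMN-like through chemokine-high granulocyte-like (283 CPM), granulocyte progenitor-like (224 CPM) and immature monocyte-like cells (205 CPM), was clear of counting error in its upper part.

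Slc2a3 encodes GLUT3, a carrier of high affinity used by neurons and leukocytes (ENSMUSG00000003153, chr6:122727809-122801640, minus strand). Over all cells it differed little, at 143 CPM in DMSO (13165 UMIs) and 126 CPM in DAB (17589 UMIs), a log2 ratio of −0.18 (−0.22 to −0.15). After thinning to 1500 UMIs, 18.1% of DMSO cells and 12.5% of DAB cells had a UMI of Slc2a3 (33.1% and 30.7% without thinning). Within the classes its ratio went in both directions, over a wider range than that of any other of the 10 genes. Over all cells Slc2a3 was read in neither direction. That reading changed to lower when each cell had equal weight (−0.93) or each cluster had the same weight in both libraries (−0.56).

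The class in which Slc2a3 was most raised was the immature monocyte-like class, whose leading genes were Mmp12, Slc7a2, Lpl and Nos2. Its level there was 10.8 CPM in DMSO (235 UMIs in 1256 cells) and 74.7 CPM in DAB (1514 UMIs in 1007 cells), a log2 ratio of 2.78 (2.59 to 2.99), or 6.89-fold. The share of these cells with a UMI of Slc2a3, after thinning every cell to 1500 UMIs and leaving out the 436 DMSO and 292 DAB cells with fewer, was 2.08% in DMSO (1.36% to 3.03%) and 8.76% in DAB (7.08% to 10.7%), and without thinning 10.4% and 27.6% at median depths of 16827.5 and 19028 UMIs. No class is known to lack this gene, so no background share can be given. Macrophage-like cells, with the least of it in DMSO, gave 1.96% and 1.45% after thinning (5.73% and 4.14% without, at 8240 and 10832 UMIs). They hold the gene themselves (7.81 CPM in DMSO) and were picked by its level. Whether the DMSO share in the immature monocyte-like class stood above background thus cannot be said. The DAB share there was higher than both thinned shares of macrophage-like cells. Intermediate granulocytes carry much Slc2a3, and their 10 markers, all detected, summed to 2189 CPM in DMSO and 2245 CPM in DAB in the immature monocyte-like class. In the cells of this class with no UMI of Camp, Ltf, Ngp or Ly6g the ratio was 2.79 (9.13 and 63.0 CPM). The summed level of the 5 chemokine-high granulocyte markers (6885 and 11903 CPM) and of the 8 early progenitor markers (32.5 and 112 CPM, Cd27 at 0 in both) was higher in the DAB cells of this class. So were the markers of mature PMN (1742 and 2527 CPM) and of basophils or mast cells (37.6 and 106 CPM). Markers of macrophages (257 and 204 CPM), activated dendritic cells (180 and 73.9 CPM) and cycling cells (384 and 223 CPM), among others, were lower. The part of all these in the result was not tested.

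The intermediate granulocyte-like class (Camp, Ltf, Ngp) had the highest Slc2a3 in DMSO. The level there was 721 CPM in DMSO (4065 UMIs) and 341 CPM in DAB (1255 UMIs), a log2 ratio of −1.08 (−1.18 to −0.99). This class supplied 30.9% of all Slc2a3 UMIs of the DMSO library and 7.14% of those of the DAB library. The summed level of its own markers was also lower in DAB (75906 and 48641 CPM) and that of chemokine-high granulocyte markers higher (3265 and 7882 CPM), and their part in the result was not tested. Slc2a3 was lower in DAB as well in mature PMN-like cells (142 and 39.7 CPM, −1.84), in an unnamed cluster led by S100a9, S100a8 and Ly6g (449 and 141 CPM, −1.68), in one led by Retnlg and Ly6g (460 and 211 CPM, −1.13) and in activated dendritic cell-like cells (37.8 and 7.41 CPM, 105 and 13 UMIs, −2.35). The intermediate granulocyte markers were lower with it, from 4034 to 2489 CPM in mature PMN-like cells and from 323 to 61.0 CPM in activated dendritic cell-like cells. In cells without granule gene UMIs the ratios were −1.62 and −3.27, the latter from only 84 DMSO and 5 DAB UMIs (interval −4.93 to −1.99). In the chemokine-high granulocyte-like class it was 122 and 79.2 CPM (−0.63), but −0.09 in the cells of that class without granule gene UMIs and −0.15 without alignment of the libraries.

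In granulocyte progenitor-like cells (Elane, Prtn3, Mpo), Slc2a3 was 111 CPM in DMSO (559 UMIs) and 340 CPM in DAB (3380 UMIs), a log2 ratio of 1.62 (1.49 to 1.75), level with the intermediate granulocyte-like cells of DAB. The class's own 8 markers summed to 4022 CPM in DMSO and 2543 CPM in DAB and the chemokine-high granulocyte markers to 850 and 1805 CPM, and their part was not tested. The Slc2a3 value depended on which cells were clustered together, with 0.31 and 0.23 at the lower and higher cluster resolution and −0.33 when genes that differ between the libraries were kept out of the clustering. The main class had 6 of its 8 markers raised against other cells, and Myl10, Thy1 and H2-Q10 were also among its leading genes. Under those other clusterings the class had all 8 raised and fewer cells (190 and 194, 195 and 192, 119 and 127, against 266 and 347). At the higher resolution an unnamed cluster led by H2-Q10 and Myl10 stood apart from it. In cycling cells Slc2a3 was 36.6 and 88.3 CPM (1.27), and 0.32 without alignment. In macrophage-like cells it was 7.81 and 17.3 CPM (1.15), and 0.90 without alignment, where its interval held 0. The 13 DMSO UMIs came from 9 macrophage-like cells and the 34 DAB UMIs from 6, so that the share of cells with a UMI was not higher in DAB. In B cell-like cells (49.9 and 62.1 CPM) it was read in neither direction, nor in mature monocyte-like cells (26.9 and 32.8 CPM, 0.29), where other clusterings and filters gave values from −0.48 to 1.59. The spread of Slc2a3 over the classes, highest over lowest, was 92.4-fold in DMSO and 46.0-fold in DAB. In the cells of the whole culture without a UMI of the granule and surface genes, Slc2a3 was 47.8 and 86.7 CPM (0.86), the opposite sign of that over all cells. Over all cells, the summed level of the intermediate granulocyte markers was 10982 CPM in DMSO and 5972 CPM in DAB, and the part of this difference in the Slc2a3 level was not tested.

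**Figure D2:**
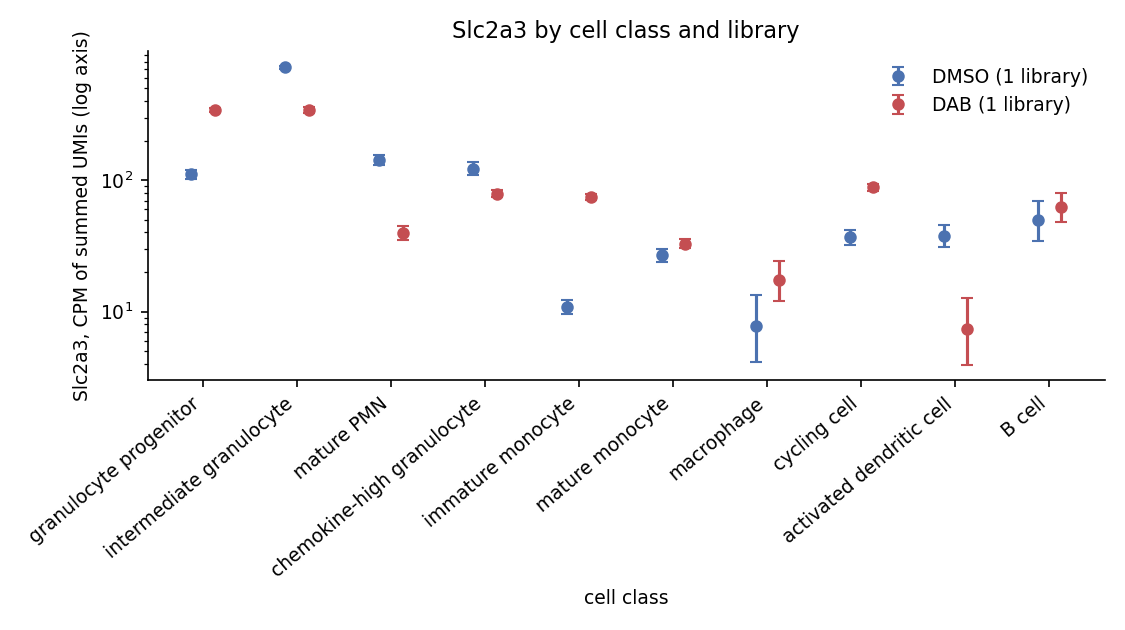
Level of Slc2a3 in each class and library, as CPM of summed UMIs on a log axis with exact Poisson 95% intervals. The DAB point lies above the DMSO point in immature monocyte-like cells (74.7 over 10.8 CPM) and below it in intermediate granulocyte-like (341 under 721 CPM) and mature PMN-like cells (39.7 under 142 CPM).

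The hexokinases phosphorylate glucose on entry. Hk2 encodes the inducible form that binds mitochondria (ENSMUSG00000000628, chr6:82725025-82774454, minus strand), and was at 77.0 CPM in DMSO (7090 UMIs) and 76.1 CPM in DAB (10633 UMIs), a log2 ratio of −0.02 (−0.06 to 0.03). The libraries did not differ in Hk2 beyond counting error. The classes did not all share this: it was lower in DAB in mature PMN-like cells (94.2 and 56.7 CPM, −0.73) and intermediate granulocyte-like cells (99.2 and 66.8 CPM, −0.57). In mature monocyte-like cells it was 73.9 and 104 CPM, a ratio of 0.49 (0.37 to 0.60) that lay just under the size from which a direction was read. In those without a UMI of Camp, Ltf, Ngp or Ly6g the ratio was 0.52 (0.38 to 0.65), past that size. The class with the highest level was thus the intermediate granulocyte-like one in DMSO, level with mature PMN-like and chemokine-high granulocyte-like cells (86.7 CPM), and the mature monocyte-like one in DAB, clear of its neighbour.

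Hk3, the hexokinase of white blood cells (ENSMUSG00000025877, chr13:55005985-55021385, minus strand), was at 72.6 CPM in DMSO (6679 UMIs) and 121 CPM in DAB (16926 UMIs), a log2 ratio of 0.74 (0.70 to 0.78), or 1.67-fold. It was the 1 gene of the group read as higher in DAB over all cells. After thinning to 1500 UMIs, 10.3% of DMSO cells and 15.9% of DAB cells had a UMI of Hk3 (40.6% and 57.0% without thinning, at median depths of 7474 and 9376.5 UMIs). B cell-like cells, which stand for background here, gave 0.775% and 0.581% (0.704% and 1.60% without thinning, at 3938 and 4828 UMIs). Hk3 was higher in DAB in 7 of the 10 classes, by 0.999 in chemokine-high granulocyte-like cells (69.3 and 139 CPM), 0.83 in granulocyte progenitor-like cells (116 and 205 CPM), 0.81 in immature monocyte-like cells (66.9 and 117 CPM), 0.76 in macrophage-like cells (76.9 and 131 CPM), 0.66 in cycling cells (78.5 and 124 CPM), 0.60 in mature monocyte-like cells (47.0 and 71.2 CPM) and 0.56 in intermediate granulocyte-like cells (116 and 171 CPM). The median ratio of all genes in the intermediate granulocyte-like class was 0.19. In the granulocyte progenitor-like class Hk3 was 0.14 to 0.32 under 3 other clusterings. In mature PMN-like cells the ratio was 0.35 (69.3 and 88.5 CPM), and activated dendritic cell-like cells had 25 UMIs in DMSO and 11 in DAB (9.01 and 6.27 CPM). Levels were highest in the granulocyte progenitor-like and intermediate granulocyte-like classes of both libraries and near 0 in B cell-like cells (1 and 3 UMIs).

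The PFKFB enzymes make and remove the activator of phosphofructokinase. Pfkfb3 encodes the form with the strongest kinase activity (ENSMUSG00000026773, chr2:11471433-11554077, minus strand). It was at 45.1 CPM in DMSO (4152 UMIs) and 36.3 CPM in DAB (5080 UMIs), a log2 ratio of −0.31 (−0.37 to −0.25). Activated dendritic cell-like cells (Ccr7, Fscn1, Ccl22) went the other way, with 71.3 CPM in DMSO (198 UMIs) and 143 CPM in DAB (251 UMIs), a ratio of 1.004 (0.73 to 1.28). There it had its highest level of any class in DAB, while in DMSO the 6 highest classes, from 53.1 to 74.8 CPM, each overlapped the next. It was lower in DAB in mature monocyte-like cells (37.7 and 24.2 CPM, −0.64) and in mature PMN-like cells (66.1 and 46.6 CPM, −0.50), the latter between −0.37 and −0.91 under the alternatives, most of which were under the limit. In the activated dendritic cell-like class its own 7 markers summed to 5156 and 5192 CPM. The markers of granulocyte progenitors (487 and 123 CPM), chemokine-high granulocytes (895 and 280 CPM) and immature monocytes (790 and 428 CPM) were lower in DAB there and those of early progenitors higher (105 and 281 CPM), and their part in the Pfkfb3 ratio was not tested.

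Pfkfb4, a related form that is induced by hypoxia in many tissues (ENSMUSG00000025648, chr9:108991778-109032228, plus strand), was at 23.8 CPM in DMSO (2195 UMIs) and 13.6 CPM in DAB (1902 UMIs), a log2 ratio of −0.81 (−0.90 to −0.72). It was the 1 gene of the group read as lower over all cells, by 1.75-fold. The difference was greatest in intermediate granulocyte-like cells, at 62.8 CPM in DMSO (354 UMIs) and 14.1 CPM in DAB (52 UMIs), a ratio of −2.15 (−2.60 to −1.73), and between −2.12 and −2.51 under the alternatives. With it in this class, the intermediate granulocyte markers were lower in DAB (75906 and 48641 CPM) and those of chemokine-high granulocytes (3265 and 7882 CPM), mature PMN (1689 and 3129 CPM) and immature monocytes (81.1 and 713 CPM) higher, and their part was not tested. In mature PMN-like cells it was level, at 41.4 and 40.2 CPM (−0.04, interval −0.34 to 0.26). Of the 10 classes, the intermediate granulocyte-like one thus had the highest Pfkfb4 in DMSO and the mature PMN-like one in DAB, each clear of the next class. Unnamed clusters were also far lower in DAB. The cluster led by Gm26917 and Gria3, with a median of 3486 UMIs per cell, had 84.1 and 21.4 CPM (−1.97), above every class in DMSO. Pfkfb4 was lower too in a cluster led by stefin A genes (66 and 108 UMIs, −1.33) and in that led by Retnlg and Ly6g (39.1 and 16.0 CPM, −1.29). In cycling cells it was 14.9 and 9.90 CPM (−0.59), a reading that held under the alternatives. That of immature monocyte-like cells (19.4 and 13.3 CPM, −0.54) was 0.02 at the higher cluster resolution, that of chemokine-high granulocyte-like cells (19.5 and 13.1 CPM, −0.57) was −0.35 without alignment, and that of granulocyte progenitor-like cells (11.7 and 7.45 CPM, −0.65) was −0.01 in cells without granule gene UMIs. In all cells without a UMI of Camp, Ltf, Ngp or Ly6g the ratio was −0.40 (18.6 and 14.1 CPM), under the size from which a direction was read.

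Ldha encodes the subunit of lactate dehydrogenase that favours the making of lactate (ENSMUSG00000063229, chr7:46841475-46855627, plus strand). It was at 1828 CPM in DMSO (168225 UMIs) and 1923 CPM in DAB (268754 UMIs), a log2 ratio of 0.07 (0.06 to 0.08). This interval is narrow and lies near 0. Across the classes the ratio ran from −0.34 in macrophage-like cells (1337 and 1057 CPM) to 0.29 in granulocyte progenitor-like cells (2075 and 2529 CPM), and no class passed the limit. Its level varied 2.99-fold over the classes in DMSO and 3.11-fold in DAB, lowest in activated dendritic cell-like cells (858 and 813 CPM). Mature PMN-like cells were highest in DMSO (2566 CPM) and level with granulocyte progenitor-like cells in DAB (2477 CPM). Ldha has near-identical pseudogenes in the genome, and the sources used here do not say how the counting shared reads among them.

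Slc16a3 encodes MCT4, the carrier that exports lactate from glycolytic cells (ENSMUSG00000025161, chr11:120948480-120960868, plus strand). It was at 238 CPM in DMSO (21941 UMIs) and 306 CPM in DAB (42819 UMIs), a log2 ratio of 0.36 (0.34 to 0.39). The ratio was above 0 in 8 of the 10 classes and passed the limit in granulocyte progenitor-like cells (237 and 369 CPM, 0.64). In macrophage-like cells it was below 0 (175 and 141 CPM, −0.31). Levels were highest in mature PMN-like cells of both libraries (322 and 432 CPM), followed by intermediate granulocyte-like cells (284 and 390 CPM), and lowest in activated dendritic cell-like (98.3 and 95.7 CPM) and B cell-like cells (85.0 and 97.9 CPM).

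Pdk1 encodes a kinase that shuts off pyruvate dehydrogenase (ENSMUSG00000006494, chr2:71873224-71903858, plus strand). It was at 68.3 CPM in DMSO (6288 UMIs) and 48.8 CPM in DAB (6820 UMIs), a log2 ratio of −0.49 (−0.54 to −0.44), just short of the limit. It passed in cycling cells (73.5 and 40.3 CPM, −0.86), macrophage-like cells (78.1 and 43.4 CPM, −0.85) and immature monocyte-like cells (73.7 and 48.9 CPM, −0.59). In intermediate granulocyte-like cells it was level (48.1 and 45.3 CPM, −0.09, interval −0.37 to 0.20), beside a median of 0.19 over all genes of the class. In B cell-like cells, with 39 and 82 UMIs, it was 57.2 and 79.5 CPM, and the interval of the ratio, −0.09 to 1.06, held 0.

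Hif1a itself (ENSMUSG00000021109, chr12:73901375-73947530, plus strand) was at 140 CPM in DMSO (12890 UMIs) and 105 CPM in DAB (14694 UMIs), a log2 ratio of −0.41 (−0.45 to −0.38). The classes in which it was read as lower were mature monocyte-like cells (154 and 74.7 CPM, −1.04), chemokine-high granulocyte-like cells (146 and 83.7 CPM, −0.80), cycling cells (181 and 114 CPM, −0.67) and macrophage-like cells (207 and 137 CPM, −0.60). In the mature monocyte-like class the summed markers of several other types were lower in DAB as well. Those of immature monocytes were at 4864 and 1922 CPM, of macrophages at 458 and 165 CPM, of activated dendritic cells at 1961 and 290 CPM and of chemokine-high granulocytes at 1577 and 577 CPM. Markers of early progenitors were higher (97.6 and 203 CPM) and those of mature PMN differed little (1405 and 1462 CPM). Its own markers were at 19767 and 18118 CPM, and the part of all these in the Hif1a ratio was not tested. In each of these 4 classes the Hif1a reading held under every clustering and cell filter tried that gave the class. In intermediate granulocyte-like cells the ratio was 0.20 (69.9 and 80.6 CPM, interval −0.02 to 0.43), beside a median of 0.19 over all genes of the class. Macrophage-like cells had the highest level in both libraries, overlapping with cycling cells in DMSO and with immature monocyte-like cells (116 CPM) in DAB, and mature monocyte-like cells went from the fourth place in DMSO to the ninth in DAB, overlapping with their neighbours in both. RNA levels of Hif1a do not measure the HIF-1α protein, which is set largely by its breakdown. Gm15283, a gene on the opposite strand that overlaps Hif1a, had 12383 UMIs, at 64.5 and 46.1 CPM (−0.48). The counting used the Cell Ranger setting for 5′ chemistry, which assigns reads by strand.

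Class by class, the reads set against those of all genes were as follows. Several of these reads were lost under other clusterings or cell filters, as given with each gene above. In immature monocyte-like cells 2 of the 10 genes were higher (Slc2a3 and Hk3, against 11.7% of all genes) and 2 lower (Pfkfb4 and Pdk1, against 19.0%). In mature monocyte-like cells Hk3 was higher (15.0% of genes) and Pfkfb3 and Hif1a lower (20.2%). In macrophage-like cells Slc2a3 and Hk3 were higher (9.36%) and Slc2a1, Pdk1 and Hif1a lower (12.9%). The 8 macrophage markers of this class summed to 1405 CPM in DMSO and 439 CPM in DAB (Vcam1 at 0 in both) and the 7 immature monocyte markers to 11063 and 7080 CPM, and the part of this in the class's ratios was not tested. The monocytic classes thus shared a higher Hk3, and 2 of the 3 shared a lower Hif1a.

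In granulocyte progenitor-like cells Slc2a3, Hk3 and Slc16a3 were higher (14.9% of genes) and Pfkfb4 lower (17.4%). There the Slc2a3 and Hk3 readings were lost under other clusterings, and the Pfkfb4 reading in cells without granule gene UMIs. In intermediate granulocyte-like cells Hk3 was higher (25.9%) and Slc2a3, Hk2 and Pfkfb4 lower (12.0%). In mature PMN-like cells 0 of the 10 genes were higher (15.9%) and Slc2a3, Hk2 and Pfkfb3 were lower (8.62%), and the median of all genes in this class was 0.11. In chemokine-high granulocyte-like cells Hk3 was higher (9.34%) and Slc2a3, Pfkfb4 and Hif1a were lower (12.3%). Of these 4 classes, Slc2a3 was lower in the 3 other than granulocyte progenitor-like cells and Hk3 higher in the 3 other than mature PMN-like cells. The lower Slc2a3 of chemokine-high granulocyte-like cells was lost in those without granule gene UMIs (−0.09) and without alignment.

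Of the remaining classes, cycling cells had Slc2a3 and Hk3 higher (16.0% of genes) and Slc2a1, Pfkfb4, Pdk1 and Hif1a lower (19.0%). Activated dendritic cell-like cells had Pfkfb3 higher (9.52%) and Slc2a1 and Slc2a3 lower (13.1%), and Pfkfb4 had too few UMIs there to count (13 and 5). In B cell-like cells none of the 10 genes was read in either direction, against 14.5% and 8.74% of genes, but this class had the fewest UMIs of the 10 and wide intervals, and Hk3 had too few UMIs to count. The B cell-like class is the 1 class outside the myeloid lineage.

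**Figure D3:**
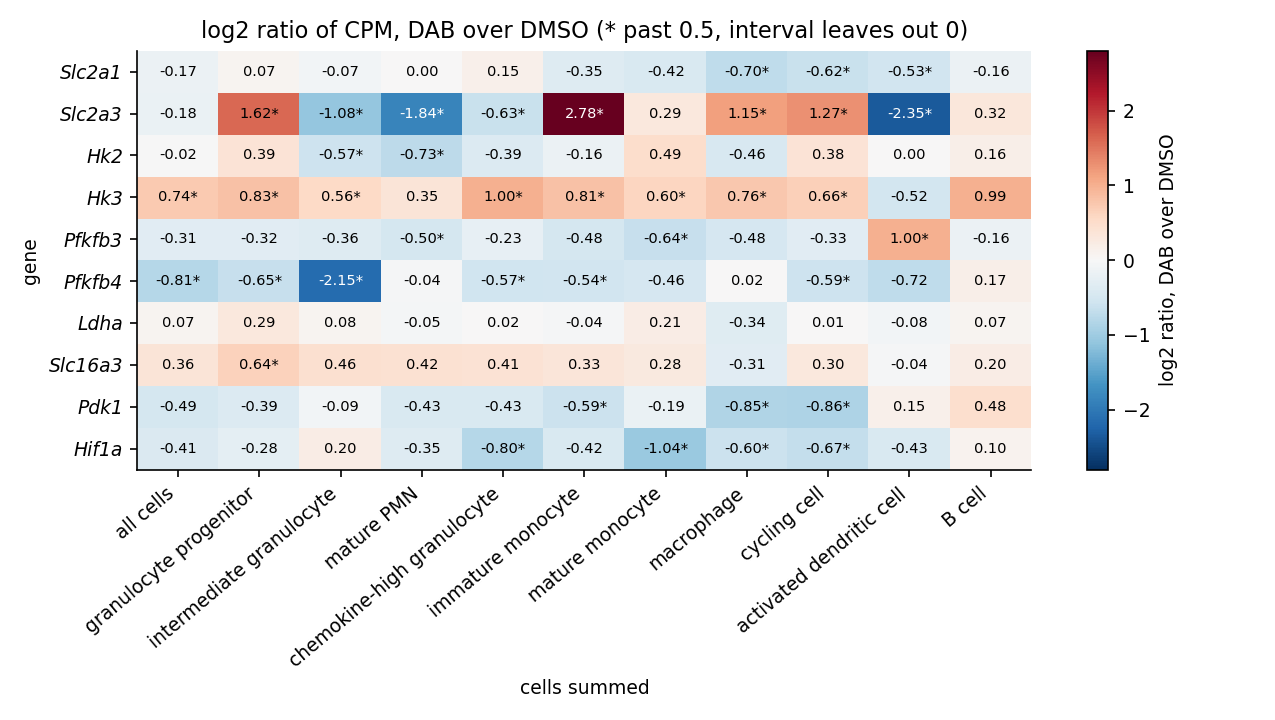
The log2 ratio of CPM, DAB over DMSO, for each gene (rows) over all cells and in each class (columns), with red for higher and blue for lower in DAB and a star where the ratio is at least 0.5 in size with an interval that leaves out 0. The Slc2a3 row runs from 2.78 to −2.35, the Hk3 row is red in all classes but the activated dendritic cell-like one (in B cell-like cells from 4 UMIs in all), and no Ldha cell has a star.

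The 21 clusters that reached 100 cells in both libraries, named or not, were read in the same way. Of all pairs of a gene and a cluster with enough UMIs, 12.8% were higher and 13.4% lower in DAB. Hk3 was higher in 14 clusters and lower in 0, with a median ratio of 0.66 over the 21. Pfkfb4 was lower in 12 and higher in 0 (median −0.59), Pdk1 lower in 9 and higher in 0 (median −0.43) and Hif1a lower in 7 and higher in 0 (median −0.42). These 4 genes thus had 1 direction in every cluster where a direction was read, as did Hk2 and Slc16a3 with fewer readings. For Hk2 this rests on the limit, as mature monocyte-like cells were at 0.49 and those without granule gene UMIs at 0.52. Slc2a3 was higher in 5 and lower in 9. Pfkfb3 was lower in 6 and higher in 1, Slc2a1 lower in 4 and higher in 1, Hk2 lower in 4 and higher in 0, and Slc16a3 higher in 3 and lower in 0. Ldha was read in neither direction in all 21 clusters, with ratios between −0.34 and 0.35. Clusters of a library share that library and are not replicates.

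**Figure D4:**
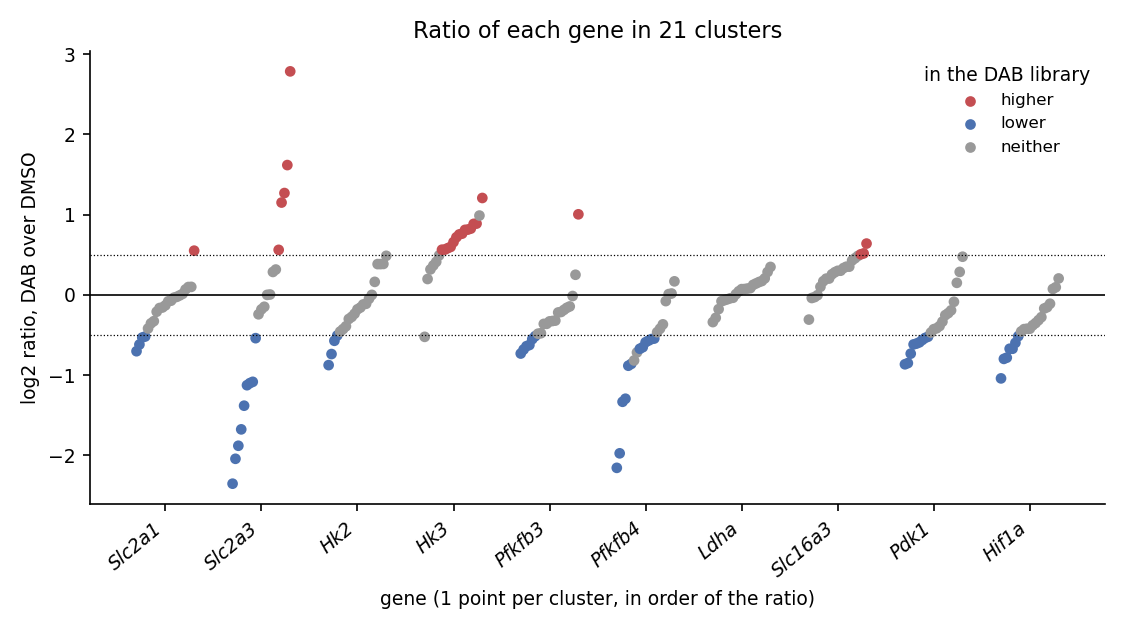
The log2 ratio, DAB over DMSO, of each gene in the 21 clusters that reached 100 cells in both libraries, 1 point per cluster in order of the ratio, with dotted lines at 0.5 in both directions, red for those read as higher in DAB, blue for lower and grey for neither. Most Hk3 points are red (14 of 21) and most Pfkfb4 points blue (12 of 21), Ldha points stay between the lines and Slc2a3 points spread from −2.35 to 2.78.

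The other genes of these pathways were counted from 7 lists of pathway members. Each count over all cells stands beside 13.7% of all genes higher and 16.5% lower, with a median of −0.02. Of 16 glycolytic enzyme genes, 0 were higher and 3 lower in DAB (median −0.09), the latter near the share of all genes. Aldoc, an aldolase, was 180 and 104 CPM (−0.78) and Gpi1, glucose phosphate isomerase, 2112 and 1384 CPM (−0.61). The third was Pfkm, a phosphofructokinase at low level (7.64 and 4.56 CPM). The other 13 did not pass, as with Pkm, pyruvate kinase (1564 and 1761 CPM, 0.17), and Pgk1, phosphoglycerate kinase (1595 and 1287 CPM, −0.31). By class, cycling cells had 6 of 15 lower and 2 higher (19.0% and 16.0% of all genes, list median −0.32). Macrophage-like cells had 4 of 14 lower and 0 higher (12.9% and 9.36%, −0.40). B cell-like cells had 4 of 13 higher and 0 lower (14.5% and 8.74%, 0.31). In the other classes the list median lay between −0.21 and 0.02. Gapdh, often taken as a reference gene, was 3032 and 2166 CPM (−0.49), and passed the limit in mature PMN-like (−0.75), cycling (−0.76), granulocyte progenitor-like (−0.58) and chemokine-high granulocyte-like cells (−0.51). Gapdh and Pgk1 have near-identical pseudogenes, as Ldha does.

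Among 11 other genes of sugar and monocarboxylate transport, 3 were higher and 2 lower (median 0.08), against 13.7% and 16.5% of all genes. Slc2a6, a carrier of lysosomal membranes in myeloid cells, was 34.5 and 57.8 CPM (0.74), and Slc16a6, a monocarboxylate carrier, 20.5 and 31.5 CPM (0.62). Slc16a1, the MCT1 carrier that moves lactate both ways, had few UMIs (5.07 and 5.55 CPM, 0.13). The others past the limit were Slc16a7 (higher, 100 and 350 UMIs), Slc2a8 (lower, 11.8 and 7.20 CPM) and Arrdc4 (lower, 103 and 67.8 CPM), an arrestin relative of Txnip.

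The oxygen-sensing genes had 5 of 12 lower and 0 higher (median −0.31), against 16.5% and 13.7% of all genes. Egln3, a prolyl hydroxylase that marks HIF proteins for breakdown and is itself induced by HIF, was 584 CPM in DMSO and 330 CPM in DAB (−0.82), and Arnt, the partner subunit of HIF-1α, 32.3 and 19.7 CPM (−0.71). Egln1 (−0.54), Vhl (−0.57) and Epas1 (82 and 59 UMIs) were the other 3. The classes did not all share this. The list median was −0.53 in mature monocyte-like, −0.33 in macrophage-like and −0.21 in activated dendritic cell-like cells. It was −0.18 in granulocyte progenitor-like and in mature PMN-like cells and −0.07 in immature monocyte-like cells. In cycling (0.01), chemokine-high granulocyte-like (0.14), B cell-like (0.21) and intermediate granulocyte-like cells (0.33) it was above 0. Of 16 known HIF targets outside glucose use, 2 were higher over all cells (P4ha2, at 9.89 and 19.0 CPM, and Car12, at 26 and 115 UMIs). The lower ones were 7, with a list median of −0.46, beside 13.7% of all genes higher and 16.5% lower. Vegfa, a growth factor for vessels, was 160 and 82.9 CPM (−0.95), and Ankrd37 was 180 and 94.9 CPM (−0.92). This list was lowest against all genes in cycling cells, with 11 of 16 lower (19.0% of all genes) and a median of −0.94 beside −0.01 for all genes. It had 8 of 15 lower in mature monocyte-like cells (20.2% of all genes, list median −0.74) and 8 of 16 in immature monocyte-like cells (19.0% of all genes, list median −0.47). In mature PMN-like cells 5 of 15 were lower (8.62% of all genes, list median −0.37). Macrophage-like (12.9%, −0.49) and intermediate granulocyte-like cells (12.0%, −0.42) each had 6 of 14 lower. Granulocyte progenitor-like cells had 5 of 16 lower and 2 higher (17.4% lower, −0.42), and B cell-like cells 5 of 13 lower (8.74%, −0.36). Activated dendritic cell-like cells, with 2 of 14 lower and 1 higher, were near the share of all genes (13.1% lower, −0.21). Chemokine-high granulocyte-like cells had 3 of 15 lower (12.3%, −0.20). Vegfa was lower in 9 of the 10 classes, activated dendritic cell-like cells being the other (117 and 100 CPM, −0.22), and Egln3 in 8, with 965 and 773 CPM (−0.32) in mature PMN-like cells and a higher level in DAB in B cell-like cells (67.4 and 98.9 CPM, 0.55).

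Genes of pyruvate use were 2 of 13 lower (Pcx, pyruvate carboxylase, at 6.21 and 2.23 CPM, and Pdk2, at 105 and 102 UMIs) and 0 higher (median −0.02), the former near the 16.5% of all genes, with Pdk3, a relative of Pdk1, at 54.1 and 43.9 CPM (−0.30) and Dlat, a pyruvate dehydrogenase subunit, at 27.3 and 31.9 CPM (0.22). None of 8 pentose phosphate genes passed the limit (median 0.02), with Rpia at 25.2 and 30.2 CPM and Tkt at 410 and 343 CPM. Genes of glycogen and the reverse steps were 4 of 11 lower and 1 higher (median −0.38), against 16.5% and 13.7% of all genes. Gbe1, the glycogen branching enzyme, was 160 and 74.3 CPM (−1.10), and Pck2, a mitochondrial carboxykinase that makes phosphoenolpyruvate, was 33.7 and 60.4 CPM (0.84). Gys1 (−0.73), a glycogen synthase, and Ugp2 (−0.63), which makes its sugar donor, were also lower.

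**Figure D5:**
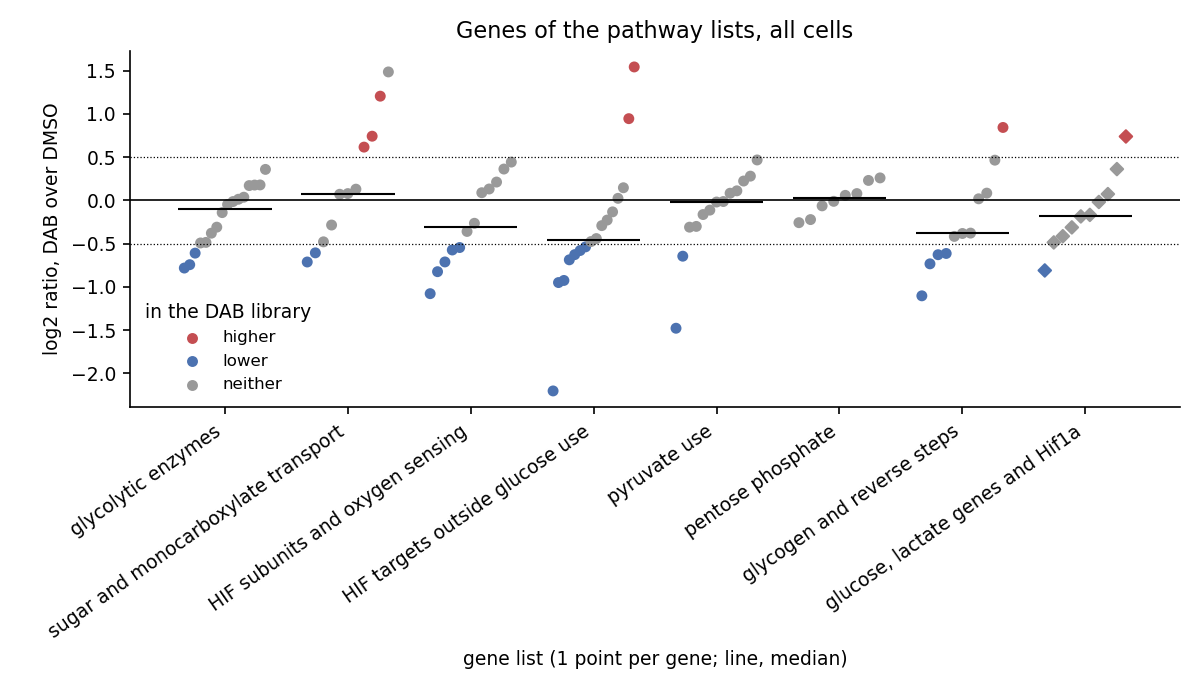
The log2 ratio, DAB over DMSO, over all cells for each gene of the 7 pathway lists (circles) and for the 10 genes (diamonds), in order within a list, with a line at each list's median and dotted lines at 0.5 in both directions. The lists of oxygen sensing (median −0.31), HIF targets (−0.46) and glycogen genes (−0.38) sit below 0, and glycolytic enzymes (−0.09), pyruvate use (−0.02) and pentose phosphate genes (0.02) sit near it.

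The likeness of expression patterns was described by Pearson correlation of log2(CPM + 10) over 20 points, the 10 classes in each of the 2 libraries, among 8605 genes. The points share a library and differ in depth, and the values are descriptions. Slc2a1 and Ldha were most like each other (0.92), followed for Slc2a1 by Bnip3 (0.91), a mitophagy gene induced by HIF, and for Ldha by Eno1b (0.91), a copy of the enolase gene. Hk3 was most like G6pdx (0.95), the entry enzyme of the pentose phosphate pathway, and Atp8b4 (0.94). Slc2a3 was most like Sytl1 (0.89) and Lipg (0.88), and Pfkfb4 like Fgd3 (0.90) and Stim1 (0.87). Hif1a was most like Ctsc (0.90), a lysosomal protease, and Tgfbi (0.89), a matrix protein of monocytes and macrophages. Slc16a3 went with Agpat5 and Tor1a (0.91 each), Pdk1 with Clybl (0.90) and Smpd1 (0.84), Hk2 with Ptpre (0.87) and Tnf (0.84), and Pfkfb3 with Kdm5a (0.88) and Gadd45b (0.87). Within the group, Hk3 and Slc16a3 (0.86) and Ldha and Slc16a3 (0.83) came next after Slc2a1 and Ldha, and Pfkfb3 and Hif1a were the least alike (−0.58).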

How the data were processed

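Single-cell RNA was measured in 2 libraries (DMSO and DAB) by 5′ v2 chemistry of 10x Genomics. Per the labels, Cell Ranger 7.0.0 and mm10 were behind the deposited UMI counts, which the authors left unscaled and which were used as raw counts per gene and barcode, with no normalization. Depth per library and the number of cells are given above, and the intervals show the precision it gives. A mitochondrial share above 10% removed 55 DMSO and 89 DAB barcodes, a limit of 4 median absolute deviations removed 0, and 768 and 1066 likely doublets were removed by a score from simulated doublets at 0.8% per 1000 cells. Pearson residuals (theta 100, computed in each library) of 3000 variable genes, after regression on mitochondrial share and cell cycle scores, were reduced to 40 components, aligned by mutual nearest neighbours and clustered with Leiden at resolution 0.9 (20 neighbours, seed 1). The 10 genes and all 7 pathway lists stayed out of the clustering. Of 26 clusters, 14 were named from 16 marker lists, which needed at least 3 markers at a log2 fold of 1 or more and markers among the 10 leading genes. Classes with under 100 cells of a library were not analysed here. The Slc2a3 ratio in activated dendritic cell-like cells without granule gene UMIs (82 DAB cells) is the exception.

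UMIs were summed per gene, library and class. CPM carry exact Poisson intervals, ratios exact conditional binomial intervals and shares of cells exact Clopper-Pearson intervals. Positions are from GENCODE M21 on GRCm38, the same build as mm10, and promoters from the RefSeq table. The genes named were all 10 genes, the 2 genes of each pathway list with the largest log2 ratio in size among those with at least 20 CPM in a library, Gapdh, Pgk1, Pkm and Slc16a1, and the 2 genes most like each of the 10. Other pathway genes past the limit were named after their values were seen. The genes, lists and rules were chosen with earlier results of these data known. Alternatives were other cell filters, scalings, weights and clusterings, thinning to 3000 UMIs and none, a minimum of 200 UMIs and a limit of 2-fold. Ratios in cells without UMIs of Camp, Ltf, Ngp and Ly6g were added after the data were seen. The ratio code was tested on simulated data. Python 3.11.15, numpy 2.4.6, scipy 1.17.1, pandas 2.3.3, scikit-learn 1.9.0, igraph 0.11.9, leidenalg 0.10.2 and matplotlib 3.10.9 were used.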

Additional observations from a re-analysis of the deposited data

Results flagged for a closer look

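Slc2a3 went in opposite directions in different classes, higher in DAB in immature monocyte-like cells (log2 ratio 2.78) and lower in activated dendritic cell-like cells (−2.35), a gap of 5.14 on the log2 scale, with 4 classes higher and 4 lower in all. Of these, the granulocyte progenitor-like (−0.33), cycling (0.32) and macrophage-like (0.90, interval holding 0) readings of higher and the chemokine-high granulocyte-like reading of lower (−0.09) were lost under an alternative. Pfkfb3 was higher in DAB in activated dendritic cell-like cells (1.004) and lower in mature monocyte-like cells (−0.64), a gap of 1.64, with 1 class higher and 2 lower. Each was singled out because the classes moved opposite ways, and with 1 library per condition neither difference between classes was tested.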

How the results depend on the processing

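No paired analysis was possible because each condition has 1 library. Over all cells, Hk3 (0.60 to 0.76) and Pfkfb4 (−0.80 to −0.62) kept their direction past the limit under the 6 other cell filters, scalings and weights. The number of the 10 genes lower in DAB went from 1 to 2 with a mean over cells and with class-standardized values, by the addition of Slc2a3. At a limit of 2-fold 0 were higher and 0 lower. With genes of at least 200 UMIs, 1 HIF target was higher. Of the class ratios read in a direction, 2 changed sign, to values under the limit: Slc2a3 in granulocyte progenitor-like cells was −0.33 when clustering left out genes that differ between the libraries, and Pfkfb4 in immature monocyte-like cells was 0.015 at resolution 1.5. The causes were not tested. Slc2a3 in immature monocyte-like cells lay between 1.97 (doublets returned) and 3.27 (resolution 1.5). A mean over cells turned the split of all genes from 13.7% higher and 16.5% lower to 18.8% and 13.7%. With 1 library per condition, differences between cultures and between treatments cannot be told apart, and intervals cover counting error only. Low cell numbers limit activated dendritic cell-like, macrophage-like and B cell-like cells most.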
